A study of Mus musculus with 18 samples.

Results

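The 35 genes described here encode the constitutive proteasome of mouse liver. They are the genes named Psma, Psmb, Psmc or Psmd followed by a number, without the 3 immunoproteasome genes Psmb8, Psmb9 and Psmb10, that had at least 100 counts summed over 18 livers. The deposited table holds 24394 usable gene symbols, of which 39 carry such a name. Psmb11, which encodes the thymus subunit, lay outside the minimum with 2 counts, both in 1 tumour-bearing WT liver. Psma8, the testis paralogue of Psma7, lay just inside it with 157 counts, and the next lowest member, Psmd5, had 2558.

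Libraries of 3′ tags were sequenced, in which a polyadenylated transcript gives about 1 tag whatever its length. The 3 groups hold 6 livers each. One group, named Stat3-deleted in what follows, carried a tumour and had the genotype Alb-Cre+/+;Stat3f/f. Another was WT with a tumour, and the last was control WT. In the Stat3-deleted mice Cre recombinase is driven by the albumin promoter, which is active mainly in hepatocytes, so the floxed part of Stat3 is lost mainly there. The tumour line is PDA.69, a mouse pancreatic ductal adenocarcinoma line derived from the KPC model and called Tcelllow in the labels. The labels name this line for the control livers as well. These were taken as tumour-free from the series' design text, and the comparisons with controls rest on that. The site and time of implantation, the age and the sex are not in the labels. Stat3-deleted livers without a tumour are not among the groups, so the deletion is always read together with the tumour. The labels number the livers and do not say that each came from its own mouse, so the p-values measure the spread between these samples.

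The proteasome degrades proteins that carry ubiquitin chains. Its 20S core is a barrel of stacked rings: outer rings of alpha subunits, which form the gate, and inner rings of beta subunits, of which Psmb6, Psmb7 and Psmb5 cut peptides. The 19S particle caps the barrel. Its base unfolds substrates with a ring of ATPases, and its lid removes ubiquitin. When proteasomes are inhibited, the transcription factor NRF1 (gene Nfe2l1) raises the subunit genes together through antioxidant response elements in their promoters, with small MAF proteins as partners. Interferons raise Psmb9, Psmb10 and Psmb8, which replace Psmb6, Psmb7 and Psmb5 in newly built cores. In liver, as elsewhere, the constitutive genes are known as housekeeping genes.

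Of the 35 members, 15 belong to the 20S core, with 8 alpha and 7 beta subunits. The other 20 carry 19S names. They are the 6 ATPases Psmc1 to Psmc6, the 3 base subunits Psmd1, Psmd2 and Psmd4, the 8 lid subunits Psmd3, Psmd6, Psmd7, Psmd8, Psmd11, Psmd12, Psmd13 and Psmd14, and the 3 assembly chaperones Psmd5, Psmd9 and Psmd10, which help to build the base and are not in the finished particle. All 35 passed the filter on low counts. Their levels are given in CPM, counts scaled to a common library size after the TMM method.

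Promoter sequences of 28 of the 35 members were found in RefSeq (GRCm38.p6), in 30 windows of 250 bases before to 50 bases after a transcript start. No window was found for Psma8, Psmb1, Psmb2, Psmb7, Psmc3, Psmd3 and Psmd7, which were not searched. The antioxidant response element that NRF1 and NRF2 bind was searched on both strands as TGACNNNGC. It occurred in 5 of the 30 windows (16.7%), those of Psmb5, Psmb6, Psmc6, Psmd12 and Psmd9, against 12.4% of all 32851 windows of that length. The CCAAT box, searched as CCAAT, occurred in 36.7% of the members' windows and 37.4% of all windows. The ETS motif, searched as CCGGAAG, occurred in 36.7% of the members' windows, those of 10 genes, and 8.86% of all windows. Each of these is a match of letters and not a measured binding site. For 5 members the promoter is given here as the 250 bases before the start, 5′ to 3′ on the strand of the gene, with the matches in capitals. Psmb5, Psmb6 and Psmd9 hold the element 47, 9 and 31 bases before the start. Psmc1 holds a CCAAT box 175 bases and an ETS motif on the other strand 28 bases before the start. Psmb4, a member whose level differed between groups, holds none of the 3 motifs in these bases. None of these matches overlap.
Psmb5: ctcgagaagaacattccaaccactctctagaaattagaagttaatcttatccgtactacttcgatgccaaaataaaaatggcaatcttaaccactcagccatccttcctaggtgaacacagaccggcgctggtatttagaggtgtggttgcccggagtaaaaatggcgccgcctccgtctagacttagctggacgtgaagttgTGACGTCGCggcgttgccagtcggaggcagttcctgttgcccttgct
Psmb6: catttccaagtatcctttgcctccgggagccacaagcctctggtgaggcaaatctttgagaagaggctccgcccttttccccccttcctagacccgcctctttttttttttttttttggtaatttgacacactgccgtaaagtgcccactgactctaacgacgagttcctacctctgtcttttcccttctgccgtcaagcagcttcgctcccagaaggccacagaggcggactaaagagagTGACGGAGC
Psmd9: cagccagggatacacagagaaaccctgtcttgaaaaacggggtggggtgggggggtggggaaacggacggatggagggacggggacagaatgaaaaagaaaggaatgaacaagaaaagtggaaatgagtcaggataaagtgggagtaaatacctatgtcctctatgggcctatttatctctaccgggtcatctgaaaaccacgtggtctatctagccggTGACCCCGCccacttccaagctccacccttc
Psmc1: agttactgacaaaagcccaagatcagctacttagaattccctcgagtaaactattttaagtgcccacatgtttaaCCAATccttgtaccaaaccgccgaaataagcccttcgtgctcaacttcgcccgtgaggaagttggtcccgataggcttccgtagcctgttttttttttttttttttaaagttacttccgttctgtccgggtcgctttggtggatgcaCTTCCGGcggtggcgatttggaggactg
Psmb4: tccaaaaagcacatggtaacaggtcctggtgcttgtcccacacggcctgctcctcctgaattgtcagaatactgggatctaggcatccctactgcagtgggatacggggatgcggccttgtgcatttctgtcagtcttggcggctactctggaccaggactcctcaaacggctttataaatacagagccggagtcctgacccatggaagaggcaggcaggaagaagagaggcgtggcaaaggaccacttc
The positions are chr14:54617996-54618245 on the minus strand for Psmb5, chr11:70525107-70525356 on the plus strand for Psmb6 and chr5:123227940-123228189 on the plus strand for Psmd9. They are chr12:100109952-100110201 on the plus strand for Psmc1 and chr3:94886959-94887208 on the minus strand for Psmb4.

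The libraries held between 5204378 and 9532978 counts. Stat3-deleted livers had totals of 7211799 to 9532978, tumour-bearing WT livers of 6159553 to 8838849 and control WT livers of 5204378 to 7149953. The 6 hepatocyte markers, Alb among them, were all present, with a summed level of 89400 to 105000 CPM in Stat3-deleted, 56600 to 119000 CPM in tumour-bearing WT and 51600 to 81000 CPM in control WT livers. The 5 markers of pancreatic tumour epithelium summed to 5.66 to 25.4, 7.12 to 32.4 and 6.61 to 16.2 CPM in the same groups. Stat3 itself had 99.4, 116 and 132 CPM (lowest, median and highest) in Stat3-deleted, 163, 215 and 264 CPM in tumour-bearing WT and 93.6, 110 and 148 CPM in control WT livers. A tag from the 3′ end need not lie in the floxed part, so this level does not check the deletion. In whole livers, fewer cells of a type and less RNA per cell cannot be told apart.

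Summed over the 35 members, the level was 6495 ± 393 CPM in Stat3-deleted, 6089 ± 296 CPM in tumour-bearing WT and 5785 ± 419 CPM in control WT livers (SD, n = 6 each). The 3 ranges overlap, from 6067 to 7107, from 5757 to 6626 and from 5214 to 6432 CPM. As a share of the raw counts the members took 0.642% ± 0.0328 in Stat3-deleted, 0.574% ± 0.0764 in tumour-bearing WT and 0.621% ± 0.031 in control WT livers (SD, n = 6 each). On library totals the sum averaged 6421, 5745 and 6211 CPM in Stat3-deleted, tumour-bearing WT and control WT livers, so the tumour-bearing WT livers were lowest there and the control livers on the TMM scale. Tumour-bearing WT replicate 6 had the lowest share, 0.442%.

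The 20S core and the 19S particle were compared as sums. The 15 genes of the core summed to 2955 ± 241 CPM in Stat3-deleted, 2776 ± 160 CPM in tumour-bearing WT and 2469 ± 104 CPM in control WT livers (SD, n = 6 each). The Stat3-deleted livers, at 2619 to 3242 CPM, overlapped the control livers, at 2341 to 2621 CPM, in 1 liver of each. The 20 genes with 19S names summed to 3540 ± 219, 3313 ± 295 and 3316 ± 422 CPM in the same order of groups, with ranges that overlap widely. On library totals the core summed to 2919 ± 188, 2610 ± 290 and 2656 ± 159 CPM, so that both WT groups change places there. The ratio of the core to the 19S sum was 0.836 ± 0.0657 in Stat3-deleted, 0.844 ± 0.1 in tumour-bearing WT and 0.754 ± 0.0976 in control WT livers. The ratios ran from 0.759 to 0.941, from 0.722 to 0.999 and from 0.601 to 0.852, so the groups overlap. These sums describe the members and carry no test.

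**Figure D1:**
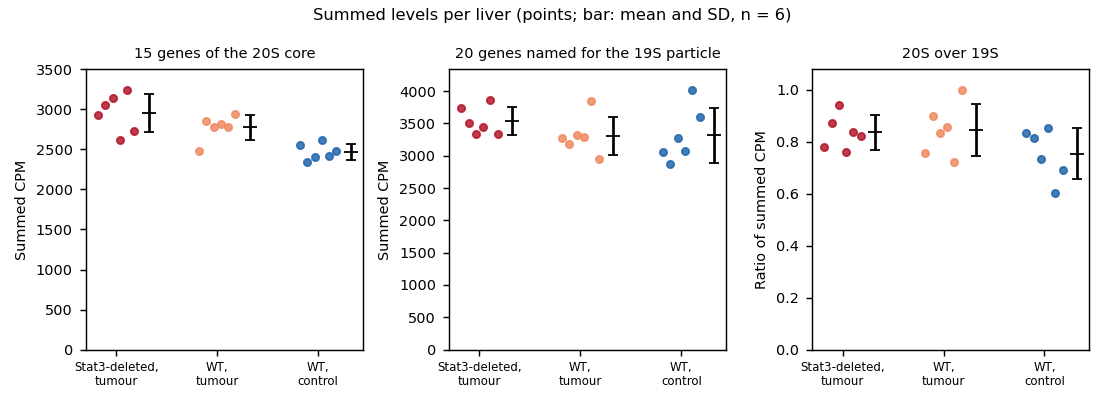
Summed CPM of the 15 genes of the 20S core, of the 20 genes named for the 19S particle, and the ratio of both sums, on linear axes that start at 0. Points are livers in order of replicate, bars are mean and SD over 6 livers. On this TMM scale the core sum averages highest in Stat3-deleted and lowest in control livers (on library totals, lowest in tumour-bearing WT livers), while the 19S sums and the ratios of the 3 groups overlap, with the lowest ratio, 0.601, in control replicate 5.

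Livers of tumour-bearing WT mice were first set against those of control WT mice, which addresses the effect of the tumour where Stat3 is intact. No member passed the test: 0 of 35 reached an adjusted p of 0.05 in edgeR's quasi-likelihood test, where 2.25% of the 11218 genes tested did (1.76% higher and 0.49% lower). DESeq2 also called 0 members and 4.12% of all genes, and 1 member, Psmb4, had an unadjusted p under 0.05 in edgeR, as did 16.2% of all genes. The median log2 fold change was 0.07 over the members and 0.004 over all genes. It was 0.15 over the 20S genes, of which 13 of 15 had a positive fold change, and 0.03 over the 19S genes, of which 12 of 20 had. The fold changes ran from -0.25 for Psmc1, a base ATPase, to 0.38 for Psma8. By class, the median was 0.17 over the alpha and 0.15 over the beta subunits, -0.01 over the ATPases, 0.01 over the other base subunits, 0.08 over the lid subunits and 0.03 over the chaperones. For 34 of 35 members the 95% interval of the fold change lay within a 2-fold change either way, and for 26 within 1.5-fold. Psma8 was the exception at 2-fold, with an interval from -0.91 to 1.67. With library totals in place of TMM the median was -0.12 over the members and -0.188 over all genes, so the members' sign turned while they stayed above all genes. The identifying numbers in the labels fall into runs, with WT replicates 1 to 3 in a lower and 4 to 6 in a higher run. Within the lower run 0 of 34 members passed, with a median of 0.13, and within the higher run 0 of 34, with a median of -0.03, in fits of 3 livers against 3. The Stat3-deleted livers have a run of their own, so run and genotype cannot be told apart in the comparisons that follow.

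The second comparison sets Stat3-deleted livers against those of tumour-bearing WT mice and addresses the loss of hepatocyte Stat3 under a tumour. Again 0 of 35 members passed in edgeR, where 6.12% of all genes did (2.89% higher and 3.23% lower). DESeq2 called 1, Psmd3, and 8% of all genes. In edgeR, Psmd3 and Psmd1 had an unadjusted p under 0.05, as did 19.4% of all genes. The median log2 fold change was 0.03 over the members, 0.03 over the 20S genes, 0.00 over the 19S genes and -0.034 over all genes. The fold changes ran from -0.20 for Psmd12, a lid subunit, to 0.36 for Psmd3. The 3 non-ATPase base subunits had the highest class median, 0.26, and the lid subunits the lowest, -0.04. The interval lay within 2-fold for 34 members, all but Psma8, and within 1.5-fold for 27.

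The third comparison, Stat3-deleted against control WT livers, differs in both tumour and genotype, and it shares its livers with the first and the second. Here 2 of 35 members (5.71%) rose and 0 fell, against 4.85% of all genes that changed (2.19% higher and 2.66% lower), so the members' share was near that of all genes. The 2 were Psmd3 and Psmb4. DESeq2 called 4, adding Psmb1 and Psmb3, and 7.67% of all genes. It gave no adjusted p for 1 member. An unadjusted p under 0.05 in edgeR was reached by 6 members, all higher, and by 20.8% of all genes in either direction. The split of that 20.8% by direction was not counted, so the members' direction has no background here. The median log2 fold change was 0.13 over the members, 0.16 over the 20S genes, 0.07 over the 19S genes and -0.009 over all genes. With library totals it was 0.00 over the members and -0.13 over all genes. The fold changes ran from -0.35 for Psmc1 to 0.69 for Psma8. The groups did not overlap for Psmb1, Psmb3 and Psmd3. The share of all genes without overlap was not counted, so this describes these members only.

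**Figure D2:**
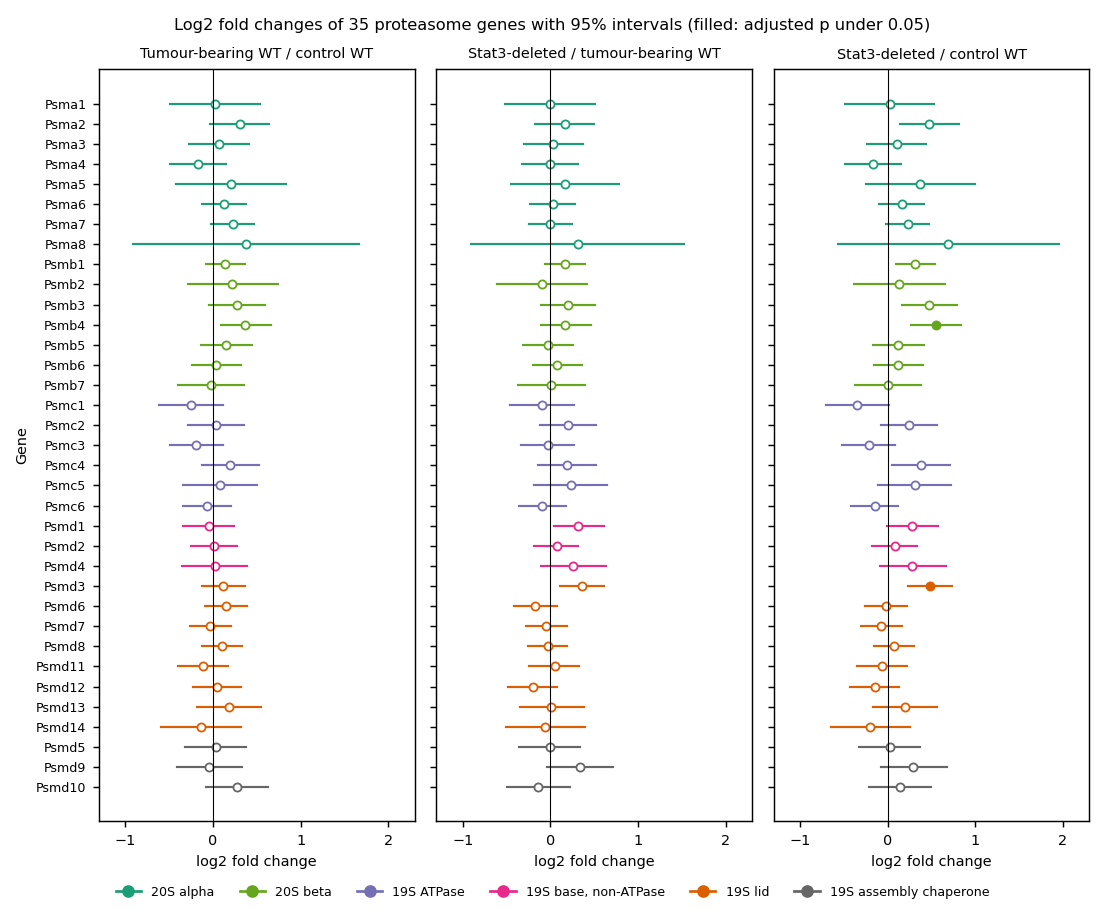
Fitted log2 fold changes of the 35 members, coloured by class, with 95% intervals, in the 3 comparisons. Filled points have an adjusted p under 0.05. Only Psmb4 and Psmd3 are filled, both in Stat3-deleted against control WT livers, and Psma8 has the widest interval in each panel.

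Among the members with a call, Psmd3 encodes a scaffold subunit of the lid. It had 188, 211 and 254 CPM (lowest, median and highest) in Stat3-deleted, 122, 176 and 189 CPM in tumour-bearing WT and 147, 149 and 173 CPM in control WT livers. Every Stat3-deleted liver lay above every control liver, and 1 overlapped the tumour-bearing WT range. Psmd3 rose in Stat3-deleted against control livers by a log2 fold change of 0.48 (SE 0.12, edgeR adjusted p = 0.0245, higher in 6 of 6 livers). Against tumour-bearing WT livers the fold change was 0.36 (adjusted p = 0.0816), and in tumour-bearing WT against control livers it was 0.12 (adjusted p = 0.672). The call against control livers was lost without Stat3-deleted replicate 1 (adjusted p = 0.0604) or 2 (0.0631), and without control replicate 1 (0.0593) or 4 (0.063). It was also lost with library totals in place of TMM (adjusted p = 0.119) and with an offset for the GC content of transcripts (adjusted p = 0.101).

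Psmd3 lies on chromosome 11 (98682554 to 98695978, GRCm38.p6), 2.22 Mb from Stat3, and Psmb3 lies 3.2 Mb from it. A further 4 members, Psmc5, Psmd12, Psmd11 and Psmb6, are on the same chromosome, between 5.35 and 30.4 Mb away. Mice made with a floxed allele can carry sequence of another strain around it. For Psmd3 and Psmb3, such linked variants and the loss of Stat3 cannot be told apart with these groups. Of the 138 genes tested within 5 Mb of Stat3, 3.62% passed in Stat3-deleted against control livers, against 4.85% of all genes.

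Psmb4, a structural beta subunit without a cutting site, had 354, 470 and 564 CPM in Stat3-deleted, 305, 417 and 515 CPM in tumour-bearing WT and 268, 316 and 364 CPM in control WT livers. The lowest Stat3-deleted liver fell within the control range, and the tumour-bearing WT livers overlapped both groups. Psmb4 rose in Stat3-deleted against control livers by a log2 fold change of 0.55 (SE 0.14, edgeR adjusted p = 0.0249, higher in 6 of 6 livers). In tumour-bearing WT against control livers its fold change was 0.37 (adjusted p = 0.174, higher in 5 of 6 livers), and in Stat3-deleted against tumour-bearing WT livers 0.17 (adjusted p = 0.522). The call was lost without Stat3-deleted replicate 2 (adjusted p = 0.0588), 3 (0.0695) or 5 (0.0638), without control replicate 3 (0.0549), 4 (0.0573) or 5 (0.0554), and with library totals (0.0522).

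For Psmb1 and Psmb3, other structural beta subunits, Stat3-deleted and control livers did not overlap, and neither gene passed in edgeR. The share of all genes without overlap was not counted, and both genes were named after their values were seen. Psmb1 had 290, 316 and 365 CPM in Stat3-deleted, 241, 286 and 334 CPM in tumour-bearing WT and 237, 266 and 268 CPM in control WT livers. Its log2 fold change in Stat3-deleted against control livers was 0.31 (SE 0.11, edgeR adjusted p = 0.0993, DESeq2 adjusted p = 0.0305). Psmb3 had 232, 264 and 397 CPM in Stat3-deleted, 179, 252 and 315 CPM in tumour-bearing WT and 184, 209 and 230 CPM in control WT livers. Its fold change was 0.47 (SE 0.15, edgeR adjusted p = 0.0745, DESeq2 adjusted p = 0.0417). For both genes the tumour-bearing WT livers overlapped the other groups. The alpha subunit Psma2 followed, with 212, 311 and 371 CPM in Stat3-deleted, 215, 257 and 350 CPM in tumour-bearing WT and 132, 232 and 250 CPM in control WT livers, and a fold change of 0.47 against control livers (edgeR adjusted p = 0.0891). Without Stat3-deleted replicate 4, Psma2 and Psmb3 had adjusted p of 0.0377 and 0.0478 in that comparison. Neither passed in the other 17 edgeR fits that left out 1 liver, with adjusted p up to 0.197 and 0.201. Psma2 also passed with the GC offset, with a fold change of 0.72 (adjusted p = 0.0224), and Psmb3 in a fit of the 2 groups alone (adjusted p = 0.0471).

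**Figure D3:**
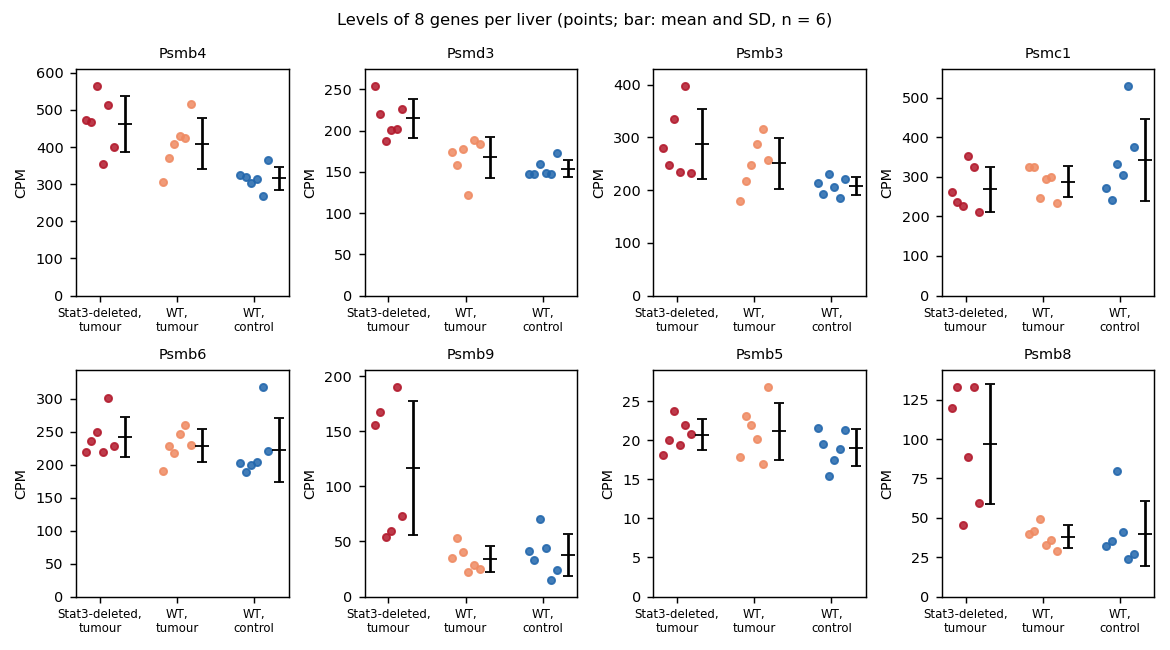
CPM of 8 genes per liver on linear axes that start at 0; points are livers in order of replicate and bars are mean and SD over 6 livers. Psmd3 separates Stat3-deleted from control livers, Psmb4 overlaps in 1 Stat3-deleted liver, and Psmb6 and Psmb5 overlap in all groups, while their inducible counterparts Psmb9 and Psmb8 reach 190 and 133 CPM in Stat3-deleted livers.

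The 3 catalytic subunits showed no called change. Psmb5, which cuts after hydrophobic residues, had 18.1, 20.4 and 23.7 CPM in Stat3-deleted, 16.9, 21.0 and 26.8 CPM in tumour-bearing WT and 15.4, 19.2 and 21.6 CPM in control WT livers. Its log2 fold change was 0.15 in tumour-bearing WT against control livers, -0.03 in Stat3-deleted against tumour-bearing WT and 0.12 in Stat3-deleted against control livers, with edgeR adjusted p of 0.64, 0.937 and 0.675. Psmb6, which cuts after acidic residues, had 219, 232 and 301 CPM in Stat3-deleted, 190, 229 and 261 CPM in tumour-bearing WT and 189, 203 and 318 CPM in control WT livers. Psmb7, which cuts after basic residues, had 95.9, 153 and 182 CPM, 85.7, 154 and 181 CPM, and 107, 149 and 191 CPM in the same groups. The 3 groups overlapped for each of these genes. In Stat3-deleted against control livers the 95% interval of the log2 fold change was -0.17 to 0.41 for Psmb5, -0.16 to 0.40 for Psmb6 and -0.38 to 0.38 for Psmb7, so that a doubling lay outside each of them.

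Their interferon-inducible counterparts, which the rule leaves out, differed between the same livers. Psmb9 had 53.9, 114 and 190 CPM in Stat3-deleted, 22, 31.6 and 52.8 CPM in tumour-bearing WT and 15.3, 37 and 70 CPM in control WT livers. It rose in Stat3-deleted against tumour-bearing WT livers by a log2 fold change of 1.78 (SE 0.34, edgeR adjusted p = 0.00242, 6 of 6 livers). Psmb8 rose by 1.35 and Psmb10 by 1.18 in that comparison. Psme1 and Psme2, which encode the 11S activator that opens the core for peptide release, rose by 0.80 and 0.78. All 5 of these genes rose in Stat3-deleted livers against tumour-bearing WT and against control livers, and in DESeq2 as in edgeR. In tumour-bearing WT against control livers 0 of 5 passed in either tool, and 2 fold changes were positive and 3 negative. An unadjusted p under 0.05 was reached by 0 of the 5 and by 16.2% of all genes. No single left-out liver ended these 5 calls in either comparison.

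The ratio of each inducible gene to its constitutive counterpart was compared with exact permutation tests over livers, two-sided, with p-values adjusted over 9 tests. The ratios use the same counts as the calls of the inducible genes, so these tests add no independent evidence. The ratio of Psmb9 to Psmb6 was 0.476 ± 0.232 in Stat3-deleted and 0.151 ± 0.0568 in tumour-bearing WT livers (SD, n = 6 each), a log2 difference of 1.56 (exact p = 0.00433, adjusted p = 0.039). The ratio of Psmb8 to Psmb5 was 4.78 ± 2.02 in Stat3-deleted and 1.85 ± 0.451 in tumour-bearing WT livers, a difference of 1.27 (exact p = 0.00866, adjusted p = 0.039). The ratio of Psmb10 to Psmb7 was 0.935 ± 0.485 in Stat3-deleted and 0.416 ± 0.169 in tumour-bearing WT livers, a difference of 1.07 (exact p = 0.0325, adjusted p = 0.0552). The groups overlapped for each pair. Against control livers the 3 differences were 1.44, 1.15 and 1.03, each with an adjusted p of 0.0552. In tumour-bearing WT against control livers they lay between -0.12 and -0.04, each with an adjusted p of 0.918. Kupffer cell markers summed to 396 to 1210 CPM in Stat3-deleted, 400 to 1110 CPM in tumour-bearing WT and 207 to 610 CPM in control livers, with 5 of 5 markers present. T and NK cell markers, also 5 of 5, summed to 4.51 to 10.4, 2.78 to 11.9 and 2.92 to 25.4 CPM in the same groups. Neutrophil markers, 4 of 5 in the table, summed to 31.7 to 98.5, 61.7 to 332 and 17.3 to 48 CPM. Monocyte and macrophage markers, 6 of 6, summed to 62.8 to 136, 54.6 to 122 and 32.6 to 101 CPM, and endothelial markers, 5 of 5, to 234 to 350, 226 to 310 and 180 to 239 CPM in the same order of groups. The part of these cells in the ratios was not tested.

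Among the base subunits, Psmc1, an ATPase, had the lowest fold change in 2 comparisons. It had 210, 249 and 352 CPM in Stat3-deleted, 234, 296 and 325 CPM in tumour-bearing WT and 241, 318 and 529 CPM in control WT livers. Its log2 fold change was -0.35 in Stat3-deleted against control livers (edgeR adjusted p = 0.261) and -0.25 in tumour-bearing WT against control livers (adjusted p = 0.503). The groups overlapped, and 1 control liver stood above all others. Psmc4, another ATPase, had 155, 160 and 200 CPM in Stat3-deleted, 105, 151 and 195 CPM in tumour-bearing WT and 94.6, 124 and 168 CPM in control WT livers, with a fold change of 0.38 against control livers (adjusted p = 0.166). Psmd1, a scaffold of the base, had 251, 305 and 363 CPM in Stat3-deleted, 171, 253 and 292 CPM in tumour-bearing WT and 217, 253 and 278 CPM in control WT livers. Its fold change in Stat3-deleted against tumour-bearing WT livers was 0.32 (edgeR adjusted p = 0.196).

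In the lid, 7 of the 8 genes had log2 fold changes between -0.20 and 0.20 in every comparison, and Psmd3 was the exception. Psmd12 had 67.2, 80.4 and 89.2 CPM in Stat3-deleted, 74.8, 95.3 and 107 CPM in tumour-bearing WT and 67, 88.7 and 108 CPM in control WT livers, which overlap. Its fold change of -0.20 in Stat3-deleted against tumour-bearing WT livers had an edgeR adjusted p of 0.444. Psmd14, the enzyme that cuts ubiquitin chains off the substrate, had fold changes of -0.14, -0.06 and -0.20 in the first, the second and the third comparison (adjusted p of 0.813, 0.914 and 0.658). Among the chaperones, Psmd9 had 37.9, 46.6 and 54 CPM in Stat3-deleted, 26.1, 29.7 and 57.5 CPM in tumour-bearing WT and 28.2, 36.9 and 46.2 CPM in control WT livers. Its fold change against tumour-bearing WT livers was 0.34 (adjusted p = 0.314), and without tumour-bearing WT replicate 6 it was 0.52 (adjusted p = 0.0428). Psmd9 did not pass in the other 17 edgeR fits that left out 1 liver, with adjusted p up to 0.523. At the low end, Psma8 had 0.804, 1.36 and 2.25 CPM in Stat3-deleted, 0.256, 0.894 and 2.62 CPM in tumour-bearing WT and 0, 0.833 and 2.25 CPM in control WT livers, and it gave no call.

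Genes that build, load and control the proteasome were taken from lists of related function. Of the 5 factors that assemble the 20S core, 0 passed in edgeR or DESeq2 in the first and second comparison, with 0 and 2 unadjusted p under 0.05 in edgeR. Of all genes, 16.2% and 19.4% had such a p. In the third comparison 1 factor, Pomp, rose in both tools. Pomp encodes the maturation protein that closes the core and is degraded as its first substrate. It had 577, 759 and 850 CPM in Stat3-deleted, 496, 520 and 715 CPM in tumour-bearing WT and 431, 496 and 683 CPM in control WT livers, and rose against control livers by a log2 fold change of 0.51 (edgeR adjusted p = 0.0392). The groups overlapped. That call was lost in 9 fits that left out 1 liver, with adjusted p of 0.0873, 0.0837, 0.068 and 0.0796 without Stat3-deleted replicates 1, 2, 3 and 5. Without control replicates 1 to 5 the adjusted p were 0.0947, 0.06, 0.0649, 0.0921 and 0.0708. It was also lost with library totals (0.126), without the filter on low counts (0.0576) and with the replicate number as a block (0.0574). Against tumour-bearing WT livers its fold change was 0.38 (adjusted p = 0.123, and 0.0489 without tumour-bearing WT replicate 5). Pomp did not pass there in the other 17 edgeR fits that left out 1 liver, with adjusted p up to 0.234.

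Of the 9 genes of NRF1 and NRF2 control in the table, 8 were tested, and Ddi2, with 87 counts, was not. Nfe2l1, which encodes NRF1, had fold changes of -0.26, 0.19 and -0.07 in the 3 comparisons and did not pass. In the first comparison 0 of the 8 passed in edgeR or DESeq2, and 2 had an unadjusted p under 0.05, as did 16.2% of all genes. Maff, which encodes a small MAF partner, had 5.05, 17.4 and 21.7 CPM in Stat3-deleted, 1.06, 3.29 and 7.12 CPM in tumour-bearing WT and 4.32, 5.97 and 10.2 CPM in control WT livers. It rose in Stat3-deleted against tumour-bearing WT livers by a log2 fold change of 2.28 (edgeR adjusted p = 0.000311, 6 of 6 livers) and against control livers by 1.31 (adjusted p = 0.0293, 5 of 6 livers). The call against control livers was lost without Stat3-deleted replicate 2 (0.0771), 3 (0.0599) or 5 (0.0741), without control replicate 1 (0.0581), 3 (0.0638), 4 (0.0765) or 6 (0.0629), with library totals (0.0633) and with the GC offset (0.0559). Nfe2l2, which encodes NRF2, had 43.2, 58.2 and 66.3 CPM in Stat3-deleted, 45.1, 65.2 and 97.3 CPM in tumour-bearing WT and 62.2, 112 and 118 CPM in control WT livers. It fell in Stat3-deleted against control livers by 0.84 on the log2 scale (SE 0.19, edgeR adjusted p = 0.0161), with all 6 livers below the control mean. In tumour-bearing WT against control livers, Nfe2l2 and Maff had fold changes of -0.58 and -0.97 (adjusted p of 0.123 and 0.186), and both passed without tumour-bearing WT replicate 1 (0.036 and 0.0422). Neither passed in the other 17 edgeR fits that left out 1 liver, with adjusted p up to 0.266 and 0.357. Mafg, which encodes another small MAF protein, had a fold change of 0.40 in Stat3-deleted against tumour-bearing WT livers (adjusted p = 0.213), and 0.63 (adjusted p = 0.00798) without tumour-bearing WT replicate 6. It did not pass in the other 17 edgeR fits that left out 1 liver, with adjusted p up to 0.411. An antioxidant response element was found for 5 members, Psmb5, Psmb6, Psmc6, Psmd12 and Psmd9. They gave no call in these comparisons in the fit of all 18 livers, and neither did most of the other members. Psmd3, a member with a call, had no promoter window and was not searched. Regulation of the members by NRF1 or NRF2 was not tested.

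Of the 17 other proteins that bind the proteasome, the 5 genes tested of the 6 of ubiquitin supply (Ubb, with 7 counts, was not tested) and the 8 genes of the p97 unfolding machine, 0 passed in edgeR in each of the 3 comparisons. Unadjusted p under 0.05 were reached by 2, 2 and 2, by 0, 0 and 3, and by 0, 1 and 1 of them in the first, the second and the third comparison. Of all genes, 16.2%, 19.4% and 20.8% reached such a p in the same comparisons. DESeq2 called 1, Ubxn1 in the second. The smallest edgeR adjusted p were 0.0682 for Ubxn1, a p97 cofactor, with a fold change of 0.45 in Stat3-deleted against tumour-bearing WT livers, and 0.0939 for Ubqln4, a shuttle for ubiquitinated proteins, with 0.69. Uba6, a ubiquitin-activating enzyme, had -0.91 in Stat3-deleted against control livers (adjusted p = 0.0966). Without tumour-bearing WT replicate 5, Ubxn1 had 0.58 in the second comparison (adjusted p = 0.00625). Without tumour-bearing WT replicate 1, Ubqln4 had 0.95 in the second (adjusted p = 0.0103) and -0.78 in the first comparison (adjusted p = 0.0462). In the second comparison each gene had no call in 17 of 18 edgeR fits that left out 1 liver. Their adjusted p there reached 0.151 for Ubxn1 and 0.196 for Ubqln4. For Ubqln4 in the first comparison, 17 of 18 such fits gave no call, with adjusted p up to 0.542. With the replicate number as a block, Ubxn1 and Ubqln4 had adjusted p of 0.0333 and 0.0488 in the second. The identifying numbers in the labels do not link same-numbered Stat3-deleted and tumour-bearing WT livers, so that block rests on the replicate number alone. AI314180, the gene of the proteasome-bound protein ECPAS, had -0.54 in the third comparison in a fit of the 2 groups alone (adjusted p = 0.0451). In the edgeR fit of all 18 livers its adjusted p was 0.107.

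The spread of the members within groups had a lower median than that of all genes. No set of genes matched to the members by level was used. The median SD of log2 CPM within groups was 0.26 over the 35 members and 0.38 over all genes tested, or 0.30 over the 6565 genes that averaged 10 CPM or more. It was 0.26 over the 20S and 0.25 over the 19S genes. Psmb1 had the smallest, 0.12, and Psma8 the largest, 0.75, followed by Psma5 with 0.60. Psmb2, Psma1 and Psmd14, with 0.51, 0.50 and 0.41, also lay above the median of all genes. The median SE of the fold changes was 0.15 over the members and 0.22 over all genes.

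Part of the variation within groups lay along a single axis. Of the within-group variance of the 34 members with at least 10 CPM, the first principal component took 54.5% and the second 13.8%. The genes were not scaled to equal variance, so the most variable ones weigh most in these shares. At one end stood Psma5, Psma1, Psmb2, Psmd14 and Psmb7 (loadings of -0.45, -0.35, -0.35, -0.31 and -0.25), and at the other Psmd13, Psmc5, Psmd4 and Psmc1 (0.22, 0.22, 0.19 and 0.16). Of the 14 core genes 7 had a negative and 7 a positive loading, and of the 20 genes with 19S names 9 had a negative and 11 a positive one. The 4 genes at the positive end all have 19S names. Psma5, an alpha subunit, had 38.5, 39, 20.1, 14.5, 23.9 and 46.9 CPM in Stat3-deleted replicates 1 to 6. It had 36.5, 39.3, 27.6, 14.6, 16.1 and 28.9 CPM in tumour-bearing WT and 37.4, 20.6, 13.7, 32.5, 14.7 and 22.1 CPM in control WT livers. Psmd13, a lid subunit, had 233, 237, 290, 247, 303 and 178 CPM in Stat3-deleted, 184, 212, 225, 290, 332 and 232 CPM in tumour-bearing WT and 188, 188, 200, 162, 335 and 226 CPM in control WT livers. These 2 genes were chosen as ends of the axis, so their values describe it and carry no test.

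Scores on this axis were highest in control replicate 5 (1.79), tumour-bearing WT replicates 5 and 4 (1.63 and 1.54) and Stat3-deleted replicates 4 and 5 (1.52 and 1.33), and lowest in Stat3-deleted replicate 6 (-1.7) and control replicates 1 and 4 (-1.28 and -1.15). The GC content of the longest protein-coding transcript was 49.2% for Psma5, 44% for Psma1, 51% for Psmb2, 43.2% for Psmd14 and 48.7% for Psmb7, against 53.4% for Psmd13, 51.6% for Psmc5, 54.4% for Psmd4 and 49.5% for Psmc1. The tags come from 3′ ends, so this is not the GC content of the sequenced fragments. The rank correlation across the 35 members between GC content and a liver's deviation from its group ran from -0.57 in control replicate 1 to 0.58 in Stat3-deleted replicate 5. Over the 10582 genes with a GC value it ran from -0.37 to 0.30 per liver. These are correlations across genes of 1 library each, given as a description, and the part of library preparation or RNA quality in them was not tested.

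**Figure D4:**
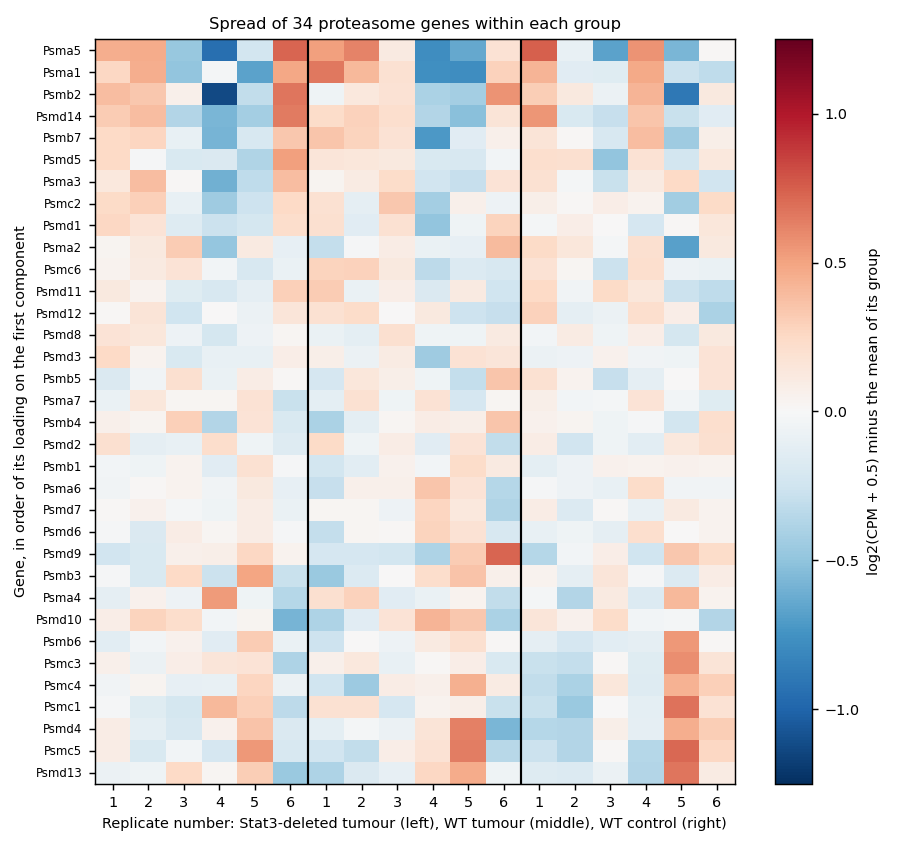
Deviation of log2(CPM + 0.5) from the group mean for 34 members (rows, ordered by loading on the first component) in 18 livers (columns, replicates 1 to 6 of each group). Red is above and blue below the group mean. Psma5 stands at the top and Psmd13 at the bottom, because the rows are placed by their loadings, and the rows of Psma7 and Psmd7 between them are paler.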

How the data were processed

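RNA of 18 livers was extracted with TRIzol and RNeasy Mini columns and made into Quantseq 3′ FWD libraries (Lexogen), per the labels' protocols. STAR and mm10 are named in the submitters' processing notes as aligner and build. How reads were filtered, assigned to strands and counted, and on which annotation, is not given in the sources, so overlapping and antisense transcripts cannot be told apart. The deposited table holds raw counts per gene symbol. Of 24421 rows, 27 whose symbols had become spreadsheet date numbers (0.103 to 0.166% of the counts) were left out, and 0 columns belonged to no sample.

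The members and gene lists were chosen with earlier results of these data known. In R 4.3.3, edgeR 4.0.16 computed TMM factors, filterByExpr kept 11218 genes, and a quasi-likelihood model (1 coefficient per group, 18 livers, 15 residual degrees of freedom, common biological coefficient of variation 0.281) was tested two-sided for 3 contrasts. Adjusted p are Benjamini-Hochberg values over all 11218 genes, with a threshold of 0.05. Intervals are 95% intervals from the fit, and log2 values outside it add 0.5 CPM. "Higher in 6 of 6" counts livers above the other group's mean. Named are members that passed, the catalytic subunits, those with the highest and lowest fold change, those near the count minimum, and up to 4 genes per related list. Psma2, Psmb1, Psmb3, Psmc4, Psmd1, Psmd9, Psmd13, Psmd14 and Psma5 were added after their values were seen.

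Results were recomputed with DESeq2 1.42.0, with library totals or RLE size factors, without the filter, on 2 groups alone, with a block for the replicate number or for the run of label numbers, and without each liver. Fits within runs and the GC offset, which uses whole GENCODE M21 transcripts and not their 3′ ends, were chosen after seeing the data. Livers of 1 group differed beyond counting noise in all 45 pairs, with a chi-square per degree of freedom of at least 7.77. Coordinates are RefSeq's on GRCm38.p6, which is mm10. Python 3.11.15, pandas 2.3.3, numpy 2.4.6, scipy 1.17.1 and matplotlib 3.10.9 were used for the rest, and limma 3.58.1 came with edgeR.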

Additional observations from a re-analysis of the deposited data

Results flagged for a closer look

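In groups of 6 livers, 6 of 111 groups examined held a liver far from the others, and chance alone gives about 1 in 20. The groups share the same livers and are not independent, so that rate is approximate. For the flagged values the gap to the nearest liver was 0.633 or more of the range of the group. Control replicate 5 held 3 of these values: Psma2 at 132 CPM, with the other control livers at 209 to 250 CPM, Psmb6 at 318 CPM, with the others at 189 to 221 CPM, and Psmd13 at 335 CPM, with the others at 162 to 226 CPM. Stat3-deleted replicate 5 held 2 of them: Psmc4 at 200.0 CPM, with the other Stat3-deleted livers at 155 to 170 CPM, and Psmc5 at 409 CPM, with the others at 243 to 298 CPM. Psma6 stood at 206 CPM in control replicate 4, with the other control livers at 165 to 175 CPM.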

How the results depend on the processing

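The count of members called was 0 in tumour-bearing WT against control livers under every alternative. In Stat3-deleted against tumour-bearing WT livers it was 1 with DESeq2 (Psmd3) and 0 to 1 with a liver left out. In Stat3-deleted against control livers it was 4 with DESeq2, 0 with library totals and 0 to 4 with a liver left out. Library totals moved the members' median log2 fold change to -0.12 in the first and 0.00 in the third comparison, the summed level to 5745 CPM in tumour-bearing WT and 6211 CPM in control WT livers, and the share of higher genes among those called from 78.2 to 39.4%, from 47.2 to 61.1% and from 45.2 to 27.2% in the 3 comparisons. With DESeq2 that share was 66.9% in the first comparison.

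Of all genes, 252 passed in the first comparison, against 462 with DESeq2, 128 with its 2 groups alone, 126 with a block for the run of label numbers, and 38 and 50 within the lower and the higher run, where the members' median in the higher run was -0.03 and where fewer livers enter each fit. With a liver left out the count ran from 132 (without tumour-bearing WT replicate 3) to 462 (without tumour-bearing WT replicate 1), and it was 139 without tumour-bearing WT replicate 4 and 163 and 159 without control replicates 4 and 6. In the third comparison 544 passed, against 860 with DESeq2, 894 with the 2 groups alone, and 258 (without Stat3-deleted replicate 5) to 783 with a liver left out. It was 272 and 279 without Stat3-deleted replicates 2 and 3, and 342, 295 and 361 without control replicates 1, 4 and 5. In the second, 686 passed, against 469 to 906 with a liver left out. Beyond the alternative's own construction, the cause was not tested.

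Same-numbered livers of different groups deviated together with r over 0.1 in 4 of 18 pairs, and r ran from -0.126 to 0.309. In the labels, most tumour-bearing WT livers carry an identifying number next to that of the same-numbered control liver. The Stat3-deleted livers have a run of their own. Whether the livers were paired by design was not tested. With the replicate number as a block, 219, 710 and 570 genes and 0, 0 and 2 members passed. No result changed its sign and was called under any alternative. At these depths a change of Psma8, at 157 counts in all, could not be resolved.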
